A study of Homo sapiens with 4 samples.

Results

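Glycolysis, with the import of glucose and the export of lactate, was examined in ES2 cells through 33 genes of 23228 in the count tables. The genes were chosen by symbol from a fixed list of 34 names along the pathway, in which the pyruvate kinase gene stood under both its current symbol PKM and its older symbol PKM2. The tables used PKM2, and this row counts the whole gene, so its spliced forms M1 and M2 cannot be separated. The genes fell into 16 steps, from the glucose transporters to the monocarboxylate transporters, and 30 of the 33 had enough counts to be tested.

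Glycolysis splits glucose into pyruvate and yields ATP and NADH without oxygen. Hexokinase traps glucose in the cell, phosphofructokinase commits it to the pathway, and the lower enzymes recover the energy. Many tumour cells send the pyruvate on to lactate even when oxygen is present. Lactate dehydrogenase carries out that step, while the pyruvate dehydrogenase kinases hold pyruvate back from the mitochondria.

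The cell line ES2 was established from a human ovarian cancer, and liquiritigenin (Liq) is a plant flavanone that the study used as an agonist of estrogen receptor β. The cells were kept in phenol red-free RPMI-1640 with charcoal-treated serum and received vehicle or 100 μM Liq for 24 h. Total RNA from 2 samples per group was sequenced, and the question here was whether Liq changed the mRNAs of this pathway. The labels do not say whether the 2 samples of a group came from separate cultures, so the p-values measure only the spread between these samples.

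The samples held between 34573053 and 48933893 reads on genes. Levels are given as CPM, the count of a gene scaled to the total of its library after TMM normalization, and 3 counts came to 0.0598 to 0.0843 CPM. The cells carried the mesenchymal transcripts VIM and FN1 at 5870 CPM or more in every sample, and the keratins KRT7, KRT8 and KRT18 were present. Both marker lists held genes that rose and genes that fell with Liq. KRT7 rose (log2 fold change 0.51) and KRT18 fell (-0.24), and CDH2 rose (0.22) while VIM (-0.28) and FN1 (-0.15) fell. Of the epithelial markers, CDH1 had no count and EPCAM and KRT19 were below 0.1 CPM. Of the Müllerian markers, EMX2 had no count, while PAX8 and WT1 were low and fell with Liq, PAX8 from 1.19 and 1.23 CPM to 0.337 and 0.578 CPM and WT1 from 4.09 and 4.83 CPM to 2.76 and 2.79 CPM. The 4 blood cell markers reached at most 0.309 CPM. Of the 3 endothelial markers, CDH5 stood at 44.6 to 52.9 CPM while PECAM1 and VWF were at 0.243 CPM or less. Of the 3 fibroblast markers, DCN and LUM had at most 0.0267 CPM, but PDGFRB rose from 1.22 and 1.07 CPM to 2.50 and 2.03 CPM. The part of these shifts in the results below was not tested.

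Liq was compared with vehicle by edgeR's quasi-likelihood test over 13546 genes, with TMM-normalized libraries and Benjamini-Hochberg adjusted p-values. Of the 30 tested glycolysis genes, 11 had an adjusted p under 0.05, or 36.7%, against a background of 24.0% of all tested genes. LDHA, LDHB, GAPDH, ENO1, ALDOA, TPI1, PGK1 and HK2 fell, and PFKFB2, ALDOC and PDK4 rose. The 8 that fell made up 26.7% of the tested members against 11.3% of all genes, and 3 of the 30 rose against 12.6%. A change of at least 1.5-fold was found in 2 of the 30, or 6.67%, against 6.45% of all genes. Both rose, against 4.29% of all genes, and none fell, against 2.16%. Both Liq samples lay below both vehicle samples for 13 members (30.2% of all genes) and above them for 7 (31.5%). The median log2 fold change of the tested members was -0.044, and that of all tested genes was 0.0062. In bulk RNA, a lower level in every cell and a level lost in some of the cells cannot be told apart.

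**Figure D1:**
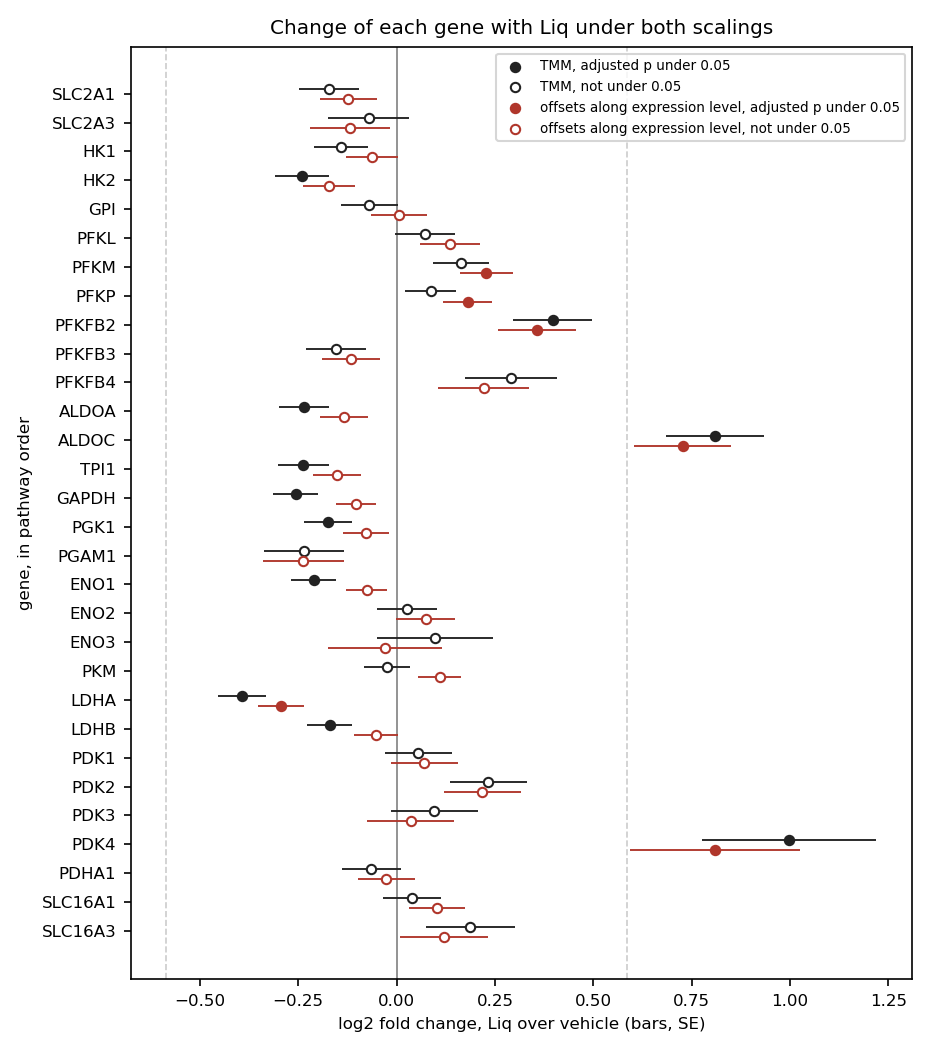
Log2 fold change of Liq over vehicle (horizontal axis, with SE) for the 30 tested genes in pathway order, under TMM normalization (black) and under offsets fitted along the expression level (red). Filled points have an adjusted p under 0.05, and dashed lines mark 1.5-fold. LDHA, PFKFB2, ALDOC and PDK4 are filled under both scalings.

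The decreases were small and lay in very abundant transcripts. All 8 genes that fell were among the 1355 tested genes with the highest levels, the top of 10 equal groups, which held 13 of the members. In this group 25.7% of all genes fell and the median log2 fold change was -0.088, whereas it was 0.25 in the group with the lowest levels. A scaling added once the data were known fitted offsets along the expression level. Under it 1 member fell (LDHA) and 5 rose (PFKM, PFKP, PFKFB2, ALDOC and PDK4). The backgrounds in that fit were 9.86% and 10.9%. ALDOC and PDK4 again passed 1.5-fold, against 5.51% of all genes in either direction and 2.65% that rose. Leaving out a vehicle sample leaves 1 in that group, and fewer members and fewer of all genes were then called. Without vehicle replicate 1, log2 fold changes were -0.40 for LDHA, -0.18 for GAPDH, 0.90 for ALDOC and 0.90 for PDK4. Without vehicle replicate 2 they were -0.39, -0.33, 0.73 and 1.10.

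**Figure D2:**
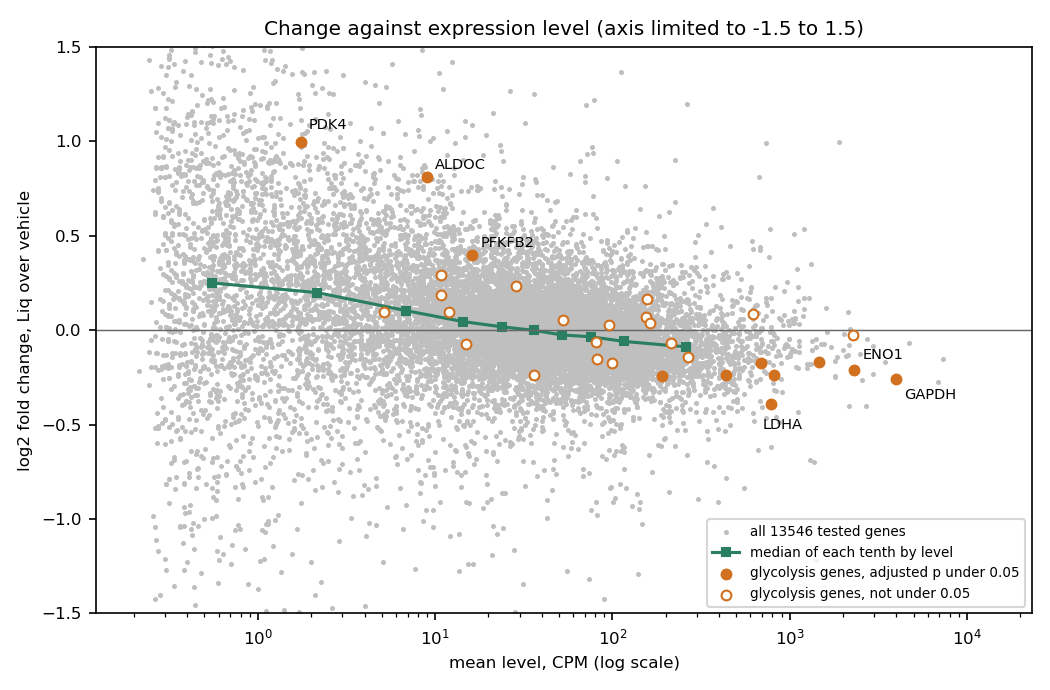
Log2 fold change of Liq over vehicle against mean level in CPM (log scale) for the 13546 tested genes (grey) and the glycolysis genes (orange, filled where the adjusted p is under 0.05). Green squares are the medians of 10 equal groups by level, which run from 0.25 at the lowest level to -0.088 at the highest.

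Levels of different genes were compared as CPM per kilobase of the canonical transcript in the GENCODE annotation of GRCh37. In vehicle, GAPDH had the highest level of the pathway (3383), followed by ENO1 (1385), LDHB (1191) and PKM (999). ALDOA (536), LDHA (397) and TPI1 (351) came next. Of the upper steps, PFKP was at 229, HK1 at 77.6, GPI at 52.8 and SLC2A1 at 31.3. Of the lower steps, PGK1 was at 152 and PGAM1 at 21.5. Reads that fit more than 1 place, 35.6% to 36.2% of the records tallied, were not counted, and 65 annotated pseudogenes carry the name of GAPDH, 13 that of PGAM1, 6 that of LDHA and 5 that of PKM. ENO1 and TPI1 have 4 such pseudogenes each, LDHB and SLC2A3 3 each, and ALDOA and PGK1 2 each. HK2, SLC16A1, PDHA1 and PDK1 have 1 each. Levels of all these genes, and the shares and ratios that use them, are therefore uncertain. Exons of ENO1, ENO3, PFKM, PFKFB2, PFKFB4, PGK1, TPI1, PDHA1, PDK2 and SLC16A3 also overlap those of another counted gene, and how strand was treated in counting is not given in the sources used here. As a share of the reads on genes, the 33 genes took 1.604% and 1.504% under vehicle against 1.485% and 1.434% under Liq.

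**Figure D3:**
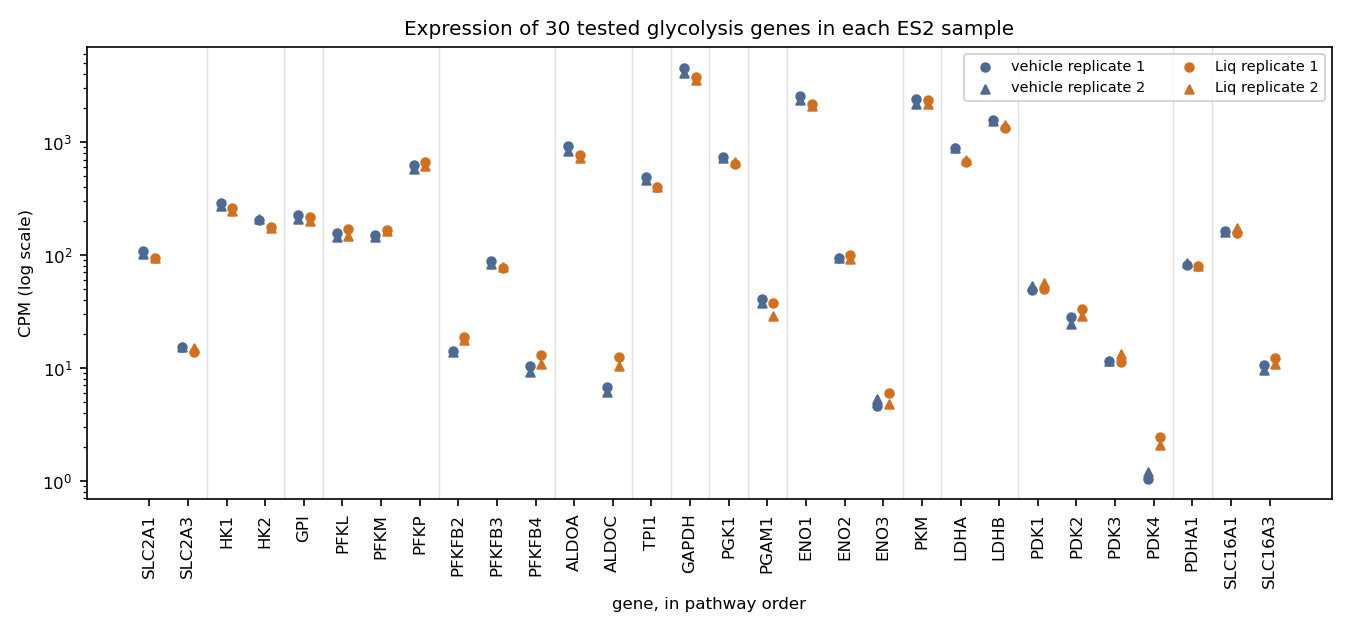
CPM (log scale) of the 30 tested genes in each of the 4 samples, in pathway order from glucose transport to lactate export. Blue points are vehicle and orange points are Liq, with circles for replicate 1 and triangles for replicate 2. For LDHA the vehicle points sit at 889 and 891 CPM and the Liq points at 660 and 695 CPM.

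The glucose transporters did not pass the test. SLC2A1 (GLUT1), the main glucose importer of many tumour cells, was at 109 and 102 CPM in vehicle and at 94.4 and 93.4 CPM in Liq. Both Liq samples lay below both vehicle samples, but the log2 fold change of -0.17 (SE 0.08) had an adjusted p of 0.099 from edgeR. SLC2A3 (GLUT3), a transporter with high affinity for glucose, ranged from 13.9 to 15.3 CPM over the 4 samples. SLC2A1 held 87.5% to 89.1% of the summed level of both transporters per length.

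Of the hexokinases, HK2 fell. HK2, the inducible form bound to mitochondria in many tumours, was at 204 and 208 CPM in vehicle and at 176 and 173 CPM in Liq. This was a log2 fold change of -0.24 (adjusted p = 0.0117, SE 0.07), and the groups did not overlap. HK1, the widely expressed form, had values of 286 and 273 CPM against 261 and 246 CPM (log2 fold change -0.14, adjusted p = 0.134). The reads of HK2 per read of HK1, a ratio that no scaling of whole libraries can move, were 0.713 and 0.764 in vehicle and 0.673 and 0.706 in Liq. HK2 held 31.3% and 32.9% of the step per length in vehicle and 30.1% and 31.1% in Liq. HK3 had 3 counts in Liq replicate 2 and none elsewhere, and it was not tested. The call of HK2 was lost with the offsets along the expression level (adjusted p = 0.0724 from edgeR). It was also lost when vehicle replicate 1 or 2 was left out, which leaves 1 vehicle sample. The log2 fold changes of HK2 were then -0.26 and -0.23, close to that in the full data.

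GPI, which turns glucose 6-phosphate into fructose 6-phosphate, ranged from 199 to 228 CPM, and its groups overlapped. The phosphofructokinases, which catalyse the committed step, also did not pass the test. PFKP was the leading form, with 69.2% to 69.9% of the step per length. PFKM, the muscle form, was at 150 and 144 CPM in vehicle and at 166 and 164 CPM in Liq, a log2 fold change of 0.16 (adjusted p = 0.0925, SE 0.07). With offsets along the expression level PFKM had a log2 fold change of 0.23 (adjusted p = 0.0201) and PFKP one of 0.18 (adjusted p = 0.0431). PFKL, the liver form, ranged from 145 to 169 CPM with overlapping groups.

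Among the PFKFB enzymes, which make and remove fructose 2,6-bisphosphate, the strongest activator of phosphofructokinase, PFKFB2 rose. PFKFB2 (chromosome 1 from 207207711 to 207254369, GRCh37, plus strand) is the form best known from heart. It was at 14.1 and 13.7 CPM in vehicle and at 18.8 and 17.8 CPM in Liq, a log2 fold change of 0.40 (adjusted p = 0.00491, SE 0.10). PFKFB3, the form with the highest kinase activity and the most abundant here, was at 88.8 and 84.0 CPM against 76.6 and 78.6 CPM. Its log2 fold change of -0.15 did not pass the test (adjusted p = 0.145). PFKFB4 was at 10.3 and 9.11 CPM against 12.9 and 10.9 CPM (log2 fold change 0.29, adjusted p = 0.072). PFKFB1, the liver form, had 2 and 0 counts in vehicle and 10 and 9 counts in Liq and was below the filter. It was called with no filter on low counts (adjusted p = 0.0293) and without vehicle replicate 1 (0.0464), but not without vehicle replicate 2 (0.24).

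The makeup of this step differed between the groups. PFKFB3 held 80.0% and 80.5% of the summed PFKFB level per length in vehicle and 72.5% and 75.4% in Liq. PFKFB2 held 8.02% and 8.34% in vehicle and 11.3% and 10.8% in Liq. PFKFB4 held 11.9% and 11.2% in vehicle and 15.7% and 13.4% in Liq. The groups did not overlap for any of these shares, which a comparison of 2 samples with 2 cannot test below an exact p of 0.3333. PFKFB2 shares exon sequence with the neighbouring gene YOD1 in the annotation. The call of PFKFB2 was lost without vehicle replicate 1 and without vehicle replicate 2, fits that leave 1 vehicle sample. Its log2 fold changes were then 0.41 and 0.38, close to that in the full data.

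**Figure D4:**
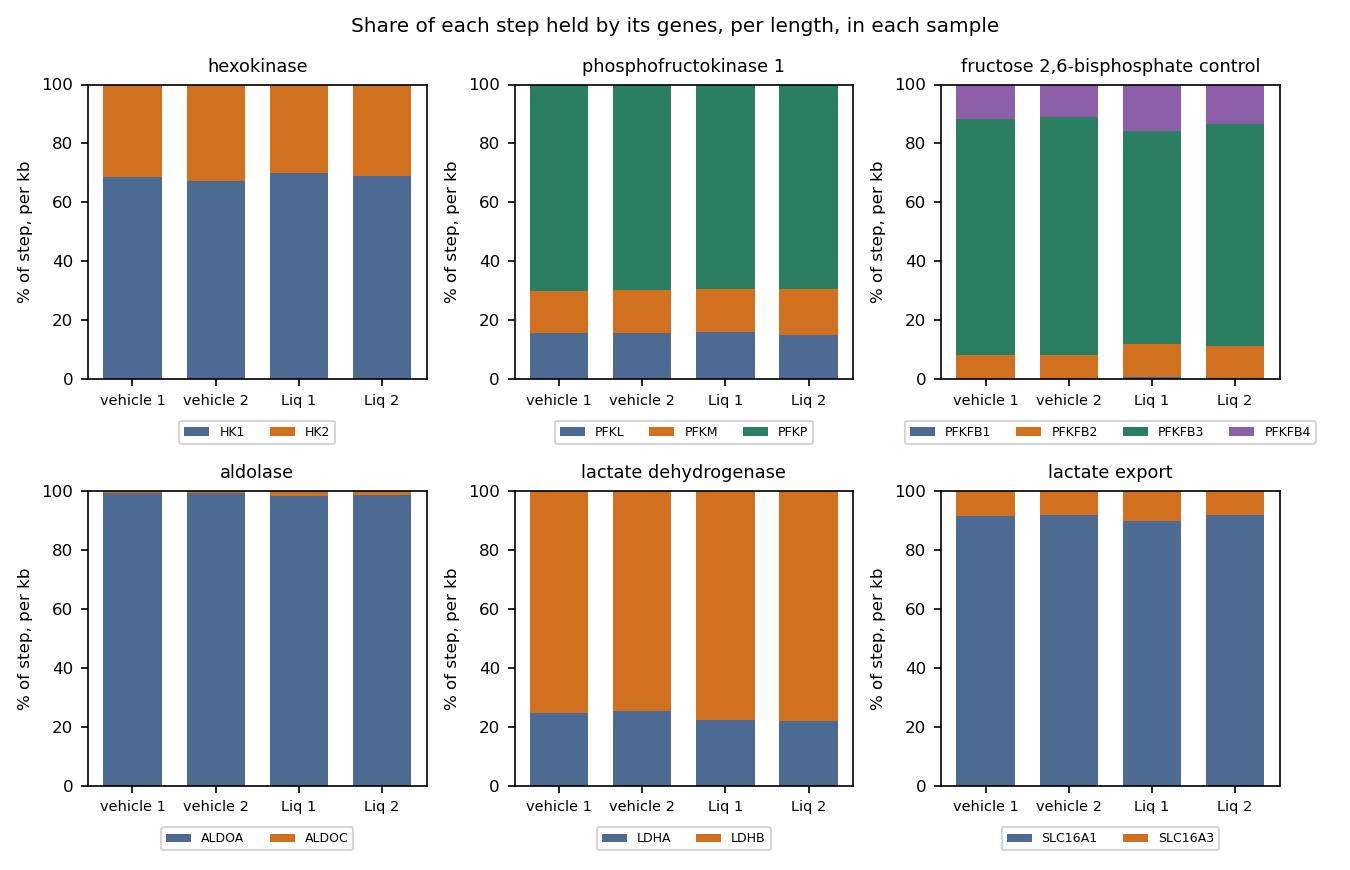
Share of 6 steps held by each of their genes (vertical axis, % of the summed CPM per kilobase) in each of the 4 samples (bars). HK3 is left out. The share of PFKFB3 falls from 80.0% and 80.5% in vehicle to 72.5% and 75.4% in Liq, and that of LDHA from 24.7% and 25.3% to 22.4% and 22.1%.

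The aldolases, which split fructose 1,6-bisphosphate into 2 triose phosphates, moved in opposite directions. ALDOA, the muscle form that dominates in most dividing cells, was at 922 and 838 CPM in vehicle and at 776 and 719 CPM in Liq. Its log2 fold change was -0.24 (adjusted p = 0.00862, SE 0.06). ALDOC (chromosome 17 from 26900133 to 26903966, GRCh37, minus strand), the brain form, was at 6.83 and 6.09 CPM in vehicle and at 12.5 and 10.3 CPM in Liq. This was a log2 fold change of 0.81 (adjusted p = 2.741e-05, SE 0.12), and both Liq samples were far above both vehicle samples. ALDOC nevertheless remained a minor form, at 0.75% and 0.74% of the step per length in vehicle and at 1.61% and 1.45% in Liq. The call of ALDOA was lost without vehicle replicate 1, without Liq replicate 2 and with offsets along the expression level, where its log2 fold change was -0.13 (adjusted p = 0.131).

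The next enzymes of the pathway fell together by small amounts. TPI1, which interconverts the triose phosphates, was at 492 and 458 CPM in vehicle and at 404 and 402 CPM in Liq. GAPDH (chromosome 12 from 6643678 to 6647540, GRCh37, plus strand), which makes the NADH of glycolysis, was at 4575 and 4119 CPM in vehicle and at 3750 and 3527 CPM in Liq. PGK1, the first enzyme of the pathway to form ATP, was at 744 and 722 CPM against 637 and 662 CPM. The groups did not overlap for any of these 3 genes, which was true of 61.7% of all tested genes. The log2 fold changes were -0.24 for TPI1 (adjusted p = 0.00841, SE 0.06), -0.26 for GAPDH (SE 0.06, adjusted p = 0.0015) and -0.18 for PGK1 (SE 0.06, adjusted p = 0.0377).

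These 3 calls depended on the scaling and on vehicle replicate 1. With offsets along the expression level the log2 fold changes were -0.15 for TPI1, -0.10 for GAPDH and -0.079 for PGK1, with adjusted p-values of 0.0865, 0.161 and 0.368 from edgeR. Without vehicle replicate 1, which leaves 1 vehicle sample, the log2 fold changes were -0.19 for TPI1, -0.18 for GAPDH and -0.15 for PGK1. The call of PGK1 was also lost without vehicle replicate 2 and without Liq replicate 1. GAPDH per PKM read, a ratio of abundant genes within each library, was 1.90 and 1.88 in vehicle and 1.60 and 1.61 in Liq. The log2 fold change of PKM itself was -0.024 under TMM normalization and 0.11 with the offsets (adjusted p = 0.164 from edgeR). ENO1 per PKM read was also lower, at 1.07 in both vehicle samples and at 0.925 and 0.960 in Liq, so a lower ratio to PKM was not particular to GAPDH.

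Phosphoglycerate mutase moves the phosphate before enolase acts. PGAM1 was at 40.4 and 37.2 CPM in vehicle and at 37.3 and 28.9 CPM in Liq, with overlapping groups and an adjusted p of 0.0947 from edgeR, and it held 99.2% or more of the step per length. The muscle form PGAM2 had 1 and 0 counts in vehicle and 5 and 1 counts in Liq. ENO1, the main enolase, fell from 2582 and 2353 CPM to 2164 and 2102 CPM, a log2 fold change of -0.21 (adjusted p = 0.00841, SE 0.06). Its call was lost without vehicle replicate 1 and with offsets along the expression level (log2 fold change -0.076, adjusted p = 0.334). The neuronal ENO2 ranged from 91.5 to 101 CPM and the muscle ENO3 from 4.62 to 5.96 CPM, both with overlapping groups. ENO1 held 97.0% and 96.7% of the step per length in vehicle and 96.2% and 96.5% in Liq. PKM, which forms pyruvate, was at 2413 and 2190 CPM in vehicle and 2339 and 2189 CPM in Liq, and the sign of its log2 fold change (-0.024, SE 0.059) turned with the scaling.

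LDHA showed the firmest decrease of the pathway. LDHA (chromosome 11 from 18416107 to 18429972, GRCh37, plus strand) encodes the subunit that favours lactate formation. It was at 889 and 891 CPM in vehicle and at 660 and 695 CPM in Liq, a fall of 23.9% (log2 fold change -0.39, adjusted p = 2.683e-05, SE 0.06). The groups lay well apart, and the call held in all 11 alternatives, with log2 fold changes from -0.43 to -0.29. LDHB, which favours the reverse reaction and was the more abundant subunit per length, was at 1573 and 1532 CPM against 1331 and 1428 CPM. Its log2 fold change of -0.17 (adjusted p = 0.0337, SE 0.06) lost its call in 6 of the 11 alternatives. There were 0.565 and 0.581 LDHA reads per LDHB read in vehicle and 0.496 and 0.487 in Liq. The groups did not overlap in this ratio, which 2 samples against 2 cannot test.

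Among the kinases that hold pyruvate back from the mitochondria, PDK4 rose. The pyruvate dehydrogenase kinases phosphorylate and inhibit pyruvate dehydrogenase, and PDK4 is the form known for its response to fasting and fatty acids. PDK4 (chromosome 7 from 95212811 to 95225828, GRCh37, minus strand) had 43 and 45 counts in vehicle and 87 and 104 counts in Liq, or 1.05 and 1.202 CPM against 2.45 and 2.07 CPM. This was a log2 fold change of 1.00 (adjusted p = 0.0017, SE 0.22), with no overlap of the groups. The 3 other kinases were more abundant and did not pass the test. PDK1 ranged from 49.3 to 56.5 CPM, PDK3 from 11.3 to 13.3 CPM, and PDK2 was at 28.0 and 24.6 CPM against 33.3 and 28.8 CPM (adjusted p = 0.0859). PDK4 held 1.55% and 1.85% of the step per length in vehicle and 3.30% and 2.77% in Liq, while the shares of the 3 other kinases overlapped between groups. PDHA1, the catalytic subunit they act on, ranged from 79.2 to 84.2 CPM (log2 fold change -0.064, adjusted p = 0.579).

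The call was made in every alternative for 3 members, LDHA, ALDOC and PDK4, so their promoters are shown. The sequences are the 250 bases before each RefSeq start on GRCh38.p14, written 5′ to 3′ on the strand of the gene. RefSeq windows were found for 30 of the 33 genes and not for SLC2A3, PFKFB2 or SLC16A1. Capitals mark ACGTG and GCGTG on either strand, which are the core letters of hypoxia response elements. The letters of the E-box CACGTG, to which MYC and the MLX partners bind, contain ACGTG on both strands. LDHA has 2 RefSeq starts.
LDHA, first start, chr11:18394313-18394562, plus strand: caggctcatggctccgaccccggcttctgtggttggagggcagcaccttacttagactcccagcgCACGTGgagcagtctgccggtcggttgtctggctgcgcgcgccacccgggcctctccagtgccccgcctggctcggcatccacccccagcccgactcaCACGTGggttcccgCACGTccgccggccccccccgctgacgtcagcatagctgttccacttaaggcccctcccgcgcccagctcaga
LDHA, second start, chr11:18396101-18396350, plus strand: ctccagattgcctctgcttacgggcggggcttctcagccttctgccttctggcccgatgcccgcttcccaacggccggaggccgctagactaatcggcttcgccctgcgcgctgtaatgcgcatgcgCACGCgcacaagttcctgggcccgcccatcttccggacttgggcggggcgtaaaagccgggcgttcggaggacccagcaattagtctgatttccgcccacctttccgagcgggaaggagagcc
ALDOC, chr17:28576896-28577145, minus strand: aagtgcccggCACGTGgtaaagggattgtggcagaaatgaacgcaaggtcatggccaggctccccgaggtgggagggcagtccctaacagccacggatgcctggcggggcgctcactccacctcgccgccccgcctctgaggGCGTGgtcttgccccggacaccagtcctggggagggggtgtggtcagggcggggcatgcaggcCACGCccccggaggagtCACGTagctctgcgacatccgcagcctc
PDK4, chr7:95596517-95596766, minus strand: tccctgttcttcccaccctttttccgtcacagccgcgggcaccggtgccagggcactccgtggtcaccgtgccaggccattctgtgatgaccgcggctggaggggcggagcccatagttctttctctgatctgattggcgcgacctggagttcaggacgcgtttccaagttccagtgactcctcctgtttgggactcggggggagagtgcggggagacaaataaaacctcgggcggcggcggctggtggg

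The first LDHA window held 3 capital stretches, 2 of them CACGTG, and the ALDOC window held 4, of which 1 was CACGTG. The second LDHA window held 1, and the PDK4 window held none. Such letters are common. ACGTG or GCGTG stood in 43.2% of all 35116 RefSeq windows of this length and in 51.7% of the 60 windows of the members, and CACGTG in 6.34% and 11.7%. A match in a window is a description that says nothing of what binds there.

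Lactate leaves the cell through monocarboxylate transporters, and neither passed the test. SLC16A1 (MCT1) was at 162 and 160 CPM in vehicle and at 156 and 174 CPM in Liq, with overlapping groups. SLC16A3 (MCT4), the exporter typical of strongly glycolytic cells, was at 10.6 and 9.59 CPM against 12.3 and 10.8 CPM (log2 fold change 0.19, adjusted p = 0.24, SE 0.11). SLC16A1 held 91.7% of the summed level of both per length in vehicle and 90.8% in Liq. BSG, the chaperone that carries both transporters to the membrane, ranged from 780 to 838 CPM (log2 fold change -0.013, adjusted p = 0.903). The uptake transporter SLC16A7 (MCT2) fell from 6.79 and 6.46 CPM to 4.13 and 5.68 CPM (log2 fold change -0.42, adjusted p = 0.0381, SE 0.15), a call that was lost in 5 alternatives, among them those without vehicle replicate 1, vehicle replicate 2 or Liq replicate 1.

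The lists of neighbouring genes were chosen, like the members, with earlier results of these data known. Over all tested genes 12.6% rose and 11.3% fell, and 19.6% and 19.8% rose in the 2 level groups that start at 1.08 and 4.06 CPM. Of 7 tested glucose transporters outside the members, 4 rose and none fell (median log2 fold change 0.41), all of them at 9.33 CPM or less. SLC2A12 was at 2.72 and 2.43 CPM in vehicle and at 4.33 and 4.48 CPM in Liq (log2 fold change 0.77, adjusted p = 0.00094, SE 0.16). SLC2A11 rose by a log2 fold change of 0.41 and the insulin-responsive SLC2A4 from 7 and 1 counts to 21 and 16 counts, and the remaining one was SLC2A6 (0.40), which falls outside the rule for naming genes. With offsets along the expression level SLC2A11 and SLC2A6 lost the call (adjusted p = 0.0706 and 0.113). Of 9 other enzymes of glycolysis and of the reactions beside it, 2 rose and 1 fell, against 12.6% and 11.3% of all genes. The phosphopentomutase PGM2 fell from 129 and 140 CPM to 97.4 and 102 CPM (log2 fold change -0.43, adjusted p = 0.000129, SE 0.08), and the minor hexokinase HKDC1 rose from 3.04 and 2.86 CPM to 4.89 and 4.22 CPM. The mitochondrial D-lactate dehydrogenase LDHD rose too, from 10 and 6 counts to 30 and 19 counts, but not with offsets along the expression level (adjusted p = 0.0577). The median log2 fold change of the 9 enzymes was -0.056. Without vehicle replicate 2 the calls of SLC2A4, SLC2A11, HKDC1 and LDHD were lost, without Liq replicate 1 those of SLC2A4, SLC2A11 and LDHD, and without vehicle replicate 1 those of SLC2A11 and LDHD.

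Of 8 glycogen genes, 2 rose and 2 fell, where 24.0% of all genes changed either way. The glycogen phosphorylases PYGB and PYGL rose, PYGB from 250 and 242 CPM to 301 and 284 CPM (log2 fold change 0.25, adjusted p = 0.00808, SE 0.07) and PYGL from 2.58 and 2.03 CPM to 3.46 and 4.08 CPM. The branching enzyme GBE1 had values of 151 and 152 CPM in vehicle and 115 and 131 CPM in Liq (log2 fold change -0.30, adjusted p = 0.00566). The glycogen primer GYG1, outside the rule for naming genes, also fell (-0.25). None of the 3 tested gluconeogenesis genes passed edgeR's test, with log2 fold changes of 0.18 for PCK2, 0.12 for PC and 0.13 for G6PC3, and 1 of them, PCK2, had an unadjusted p under 0.05. Of 10 genes for pyruvate entry into mitochondria, PDHB, the partner of PDHA1, fell from 64.9 and 66.9 CPM to 53.6 and 56.7 CPM (log2 fold change -0.26, adjusted p = 0.0203, SE 0.08). The others did not pass the test, DLAT and PDHX with log2 fold changes of -0.15 and -0.16. PYGB, GBE1 and PDHB lost their calls when either vehicle sample was left out, and PYGL without vehicle replicate 2. Over all alternatives, log2 fold changes ran from 0.21 to 0.33 for PYGB and from -0.40 to -0.20 for GBE1. They ran from -0.30 to -0.22 for PDHB and from 0.55 to 0.90 for PYGL.

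Of 14 tested regulators of glycolytic genes, 2 rose and 3 fell, against 24.0% of all genes called either way, with a median log2 fold change of 0.024. TXNIP, an arrestin that removes glucose transporters from the membrane and is itself induced by glucose through MLX and its partners, fell from 78.7 and 77.9 CPM to 31.6 and 33.0 CPM. Its log2 fold change was -1.28 (adjusted p = 5.333e-12, SE 0.08). MLX fell from 78.9 and 80.5 CPM to 63.5 and 64.0 CPM (log2 fold change -0.32, adjusted p = 0.00318, SE 0.08). The call of MLX was lost when either vehicle sample was left out, but its log2 fold change stayed between -0.34 and -0.29 over all alternatives. EPAS1 (HIF2α) rose from 17.8 and 17.5 CPM to 27.2 and 26.1 CPM (log2 fold change 0.59, adjusted p = 4.34e-05, SE 0.09). ESRRA fell as well (-0.32), and it and HIF1A were named after their values were seen. HIF1A rose from 550 and 556 CPM to 624 and 648 CPM (log2 fold change 0.20, adjusted p = 0.0187, SE 0.06).

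Of 20 tested genes of the hypoxia response outside glycolysis, 4 rose and 1 fell, a share about that of all genes (24.0%). LOX, which crosslinks collagen, rose from 582 and 574 CPM to 772 and 779 CPM (log2 fold change 0.42, adjusted p = 9.857e-06, SE 0.06). DDIT4, an inhibitor of mTORC1, rose from 29.2 and 25.1 CPM to 43.2 and 40.7 CPM (log2 fold change 0.63, SE 0.09). PLOD2, a collagen lysyl hydroxylase, fell from 693 and 733 CPM to 487 and 566 CPM (log2 fold change -0.44, SE 0.07). CA12 and CA9, named after their values were seen, rose by log2 fold changes of 0.50 and 1.59, CA9 from 9 and 7 counts to 23 and 30 counts. The list as a whole had a median of 0.034. The calls of TXNIP, EPAS1, LOX, DDIT4 and PLOD2 held in all 11 alternatives.

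**Figure D5:**
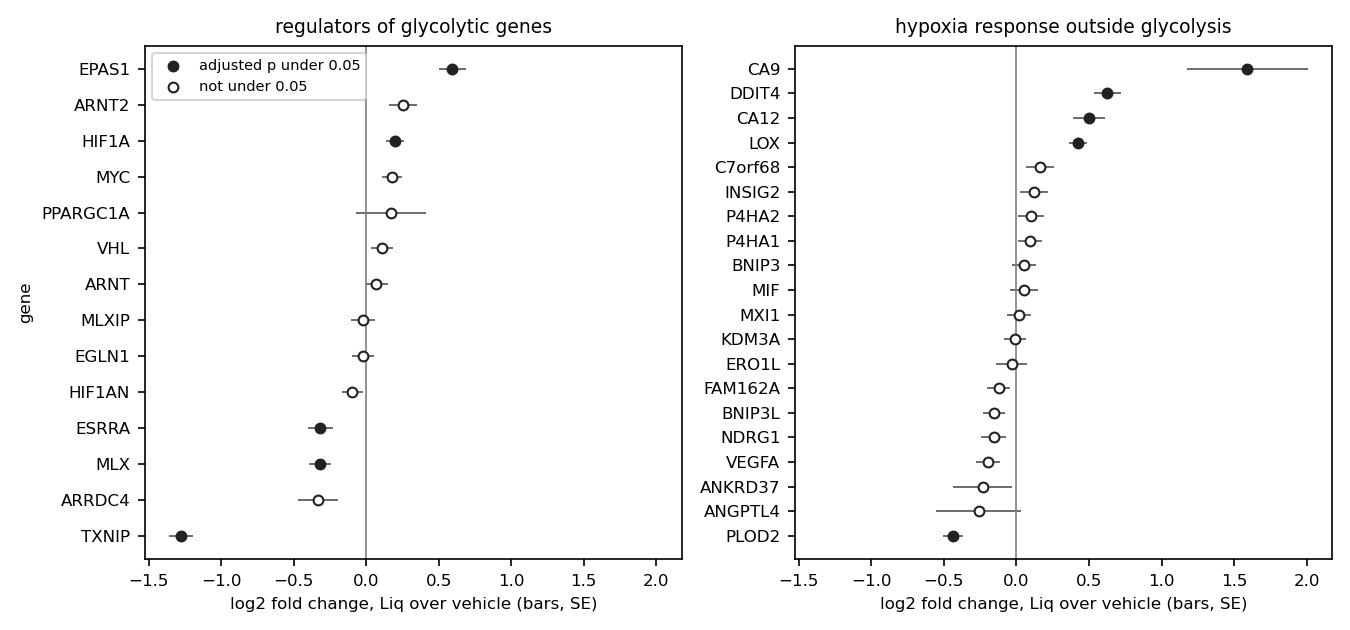
Log2 fold change of Liq over vehicle (horizontal axis, with SE) for 14 tested regulators of glycolytic genes (left) and 20 tested genes of the hypoxia response outside glycolysis (right). Filled points have an adjusted p under 0.05. TXNIP lies lowest, at -1.28, and the genes of the hypoxia list lie on both sides of 0.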

How the data were processed

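ES2 cells treated with vehicle or Liq for 24 h were measured by RNA-seq, with 2 samples per group. Sample titles gave the group and the replicate number. Per the labels, libraries were read as 100 bp single ends, and the submitters' processing notes name TopHat2 2.0.8b, HTSeq and the build hg19. The authors deposited raw counts per gene, 1 table per sample, as whole numbers. Reads on genes made up 54.06% to 55.62% of the records in a table. The HTSeq tallies at the end of each table, which hold the rest, were left out of library sizes and tests.

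The test was that of edgeR 4.0.16 in R 4.3.3 (filterByExpr with a minimum count of 10, TMM, glmQLFit and glmQLFTest), and p-values were adjusted over 13546 genes. The SE is the log2 fold change divided by the square root of F. CPM are scaled by TMM. Genes at 1.5-fold also had an adjusted p under 0.05. The dose comes from the paper. The members and gene lists were chosen with earlier results of these data known. A gene of the regulator list is not reported here, and the list's counts leave it out. All members are described, and of each other list the up to 3 genes with the smallest p are named. Alternatives were other normalizations (DESeq2 size factors, upper quartile), other filters, the DESeq2 1.42.0 Wald test, a block for the replicate number, leaving out single samples, and loess offsets that follow the expression level (span 0.3). The last was added once the data were known. Transcript lengths and coordinates come from the GENCODE annotation of GRCh37, which may differ from the authors' gene models, and promoters come from RefSeq on GRCh38.p14. Older symbols (PKM2 and others) were matched through RefSeq synonyms. Exact tests of 2 samples against 2 cannot go below 0.3333.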

Additional observations from a re-analysis of the deposited data

How the results depend on the processing

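Over the 30 tested members and 11 alternatives, 278 of 330 values kept their direction and side of the threshold, 25 lost the call, 13 gained it and 14 turned sign, all of the last in genes that had not passed the test. Of the 11 called members, 3 (LDHA, ALDOC and PDK4) were called in every alternative. The number of members with an adjusted p under 0.05 was 6 with offsets along the expression level, a scaling added once the data were known. It ran from 4 to 12 when 1 sample was left out. The number at 1.5-fold was 2 or, where PFKFB1 was called too, 3. Over all genes, the number with an adjusted p under 0.05 ran from 1413 to 3780 when 1 sample was left out, against 3245, and the DESeq2 Wald test gave 566 genes at 1.5-fold against 874. Of these 874 genes 581 rose and 293 fell, while 359 rose and 387 fell with the offsets. With unadjusted p-values, 1064 genes passed at 1.5-fold. The causes were not tested.

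With the replicate number as a block, 18 members had an adjusted p under 0.05, of which 6 rose and 12 fell. Across genes, equally numbered vehicle and Liq samples barely deviated together (correlation 0.0483). Some abundant members did. In order of replicate number, GAPDH was at 4575 and 4119 CPM in vehicle and at 3750 and 3527 CPM in Liq. ALDOA and ENO1 were likewise lower at the higher number in both groups. LDHB and PGK1 were not, with LDHB at 1573 and 1532 CPM in vehicle and at 1331 and 1428 CPM in Liq. Whether the number marks a true pairing was not tested. Calls also rose over all genes, where the block gave 4795 with an adjusted p under 0.05 against 3245 without it. Of the 4795 genes, 2321 rose and 2474 fell, so the larger number of calls was not particular to the members.

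Values that turned sign were small. With offsets along the expression level the log2 fold change was 0.0056 for GPI, -0.030 for ENO3, 0.11 for PKM2 and 0.088 for BSG, and with upper-quartile normalization it was 0.0042 for PKM2 and 0.015 for BSG. When 1 sample was left out, log2 fold changes ran from -0.026 to 0.16 for PFKL, from -0.042 to 0.094 for ENO2, from -0.065 to 0.26 for ENO3, from -0.093 to 0.047 for PKM2, from -0.038 to 0.14 for PDK1, from -0.033 to 0.20 for PDK3, from -0.045 to 0.11 for SLC16A1 and from -0.065 to 0.039 for BSG.

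Shares within a step depend on the transcript model. With merged exon lengths, also added later, LDHA held 22.1% of its step in vehicle in place of 25.0%, and PDK3 7.20% in place of 36.0%. HK3, PFKFB1 and PGAM2 had no more than 10 counts in any sample. With no filter on low counts PFKFB1 was called and HK3 and PGAM2 were not (adjusted p = 0.0293, 0.447 and 0.447).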
